A study of Rattus norvegicus with 84 samples.

Results

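The nucleus accumbens is the ventral part of the striatum and is divided into a shell and a core. Shell libraries of the group labelled HC_Coc were set against Core libraries of the same group, chosen as those whose titles give the subregion and HC_Coc. There were 7 Shell and 7 Core libraries, 14 of the 84 in the series. All came from wild-type Long-Evans rats, an outbred laboratory strain. Coc stands for cocaine and Sal for saline, and HC, which the labels do not spell out, commonly stands for home cage. The series studied withdrawal from cocaine and its extinction. For comparison, 7 Shell and 7 Core libraries each of HC_Sal (saline, the same HC condition) and Ext_Coc (cocaine, extinction) were used. The labels give neither the dose, the route and duration of cocaine, the age of the rats, nor whether libraries come from different animals. The p-values therefore reflect only how far these samples vary, and that variation may be technical.

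Most neurons of the accumbens are GABA-releasing spiny projection neurons, which carry either D1-type or D2-type dopamine receptors and make peptides such as dynorphin, substance P and enkephalin. A small number of interneurons, cholinergic ones among them, act on these cells. The core resembles the dorsal striatum, is rich in calbindin and is crossed by bundles of myelinated fibres, whereas the shell borders the septum, the olfactory tubercle and the islands of Calleja and is known for peptides and opioid and D3 dopamine receptors. Oligodendrocytes wrap axons in myelin, and astrocytes take up transmitter and shape the extracellular space.

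Total RNA was sequenced with a stranded low-input kit, and levels are given as CPM, counts scaled by library size after TMM normalization (a correction for library composition). Shell libraries held 15709856 to 20129307 counts and Core libraries 13628550 to 20692061. A ribosomal RNA gene held 8.03 to 16.5% of the counts in Shell and 9.72 to 23.0% in Core. Counts summed over 1386 olfactory and vomeronasal receptor genes, which neurons of the striatum are not known to use, served as a measure of background. Scaled by total counts without the TMM correction, they ran from 82.4 to 1039 CPM in Shell, with a median of 649. In Core they ran from 79.2 to 1185 CPM, with a median of 815. In log2 units Shell averaged 9.04 ± 1.22 and Core averaged 8.56 ± 1.75 (SD over 7 libraries per subregion), a difference of 0.49 (two-sided exact permutation test over 3432 splits, p = 0.554). The level was low in 1 Shell library (6-F) and in 3 Core libraries (1-9, 13-F and 5-F), at 157.7 CPM or less, and at least 577 CPM in the other 10. The first principal component of expression held 87.1% of the variance and set the same 4 libraries apart from the rest. The counts over all genes and over the gene lists below are therefore also given with the background level as a covariate and in the 10 libraries with a log2 level above 9, the 10-library choice made after the data had been seen.

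**Figure D1:**
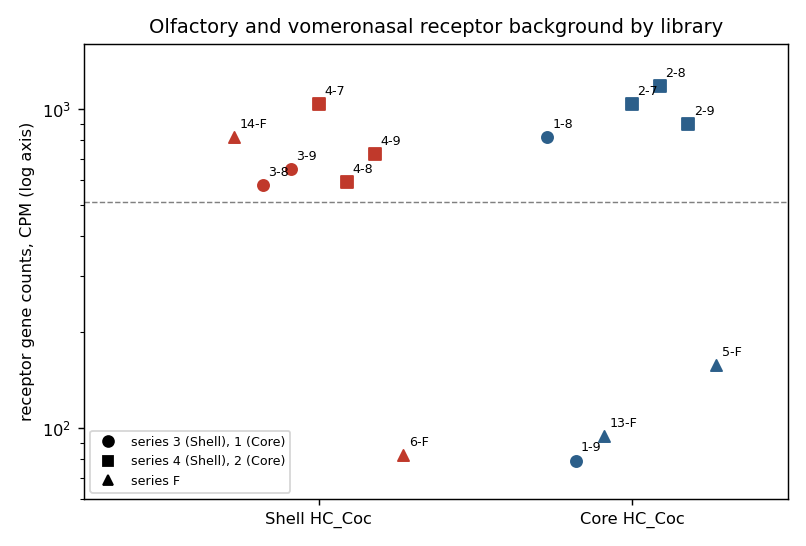
Receptor gene counts (CPM without the TMM correction, log axis) in each of the 7 Shell and 7 Core HC_Coc libraries. Symbols mark the library series, and a dashed line lies at a log2 level of 9. Shell 6-F and Core 1-9, 13-F and 5-F lie under the line at 79.2 to 157.7 CPM, and the other 10 libraries lie above it.

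Genes of myelinating cells were among those lower in Shell. Higher calls included 1 of 22 neuropeptide precursors, 2 of 10 opioid and cannabinoid genes and 4 of 64 axon guidance and adhesion genes. Of sodium and calcium channels 1 of 25 was higher, of peptide receptors 0 of 28 and of potassium channels 0 of 26. The edgeR quasi-likelihood test called 58 of 28602 genes higher in Shell (0.203%) and 169 lower (0.591%) at a Benjamini-Hochberg adjusted p under 0.05. All 7 Shell libraries lay above all 7 Core libraries for 80 genes (0.280%) and below them for 150 (0.524%). Among the 15 largest decreases stood 9 genes of the list of myelin and mature oligodendrocytes, and the astrocyte gene Gfap. Among the 15 largest increases stood the peptide gene Nmb and the astrocyte-linked genes Itih3, Agt and Slc25a18. The astrocyte list as a whole had 2 higher and 1 lower of 15, with a median log2 fold change of -0.04.

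The count of calls depended on the background, on whether libraries were paired and on which libraries were used. With the background covariate 1942 genes were higher (6.79%) and 801 lower (2.80%), and in the 10 libraries 5208 were higher (17.4%) and 3769 lower (12.6%). All 58 higher and all 169 lower genes kept their call in both fits. Both reuse libraries that selected these genes, so the kept calls are no independent support. The list counts given below for these 2 fits are to be read against the shares over all genes given here. The titles' numbers were also used as a replicate block (Shell 3-k paired with Core 1-k, and 4-k with 2-k). With this block 0 genes passed by edgeR's test, with 1218 at an unadjusted p under 0.05. The numbered libraries alone also gave 0 calls without a block (975 at an unadjusted p under 0.05, edgeR). Of the 5 pairs 4 had r over 0.1, and 3 Shell libraries correlated best with their own number among the numbered Core libraries. Over the series 18 of 30 did so, and the median r was 0.382 for the title pairs against -0.012 for other pairings. Shell 3-9 with Core 1-9 had r of 0.0554. The adjusted p-values of single genes below come from fits without the block. With the block and the background covariate together, 1423 were higher and 688 lower. Outside the F series each subregion has its own series (3 and 4 for Shell, 1 and 2 for Core), so series and subregion cannot be told apart there. In series 4 against series 2 (3 libraries each) 3116 genes were higher (10.4%) and 1991 lower (6.66%), and 54 of the 58 and 159 of the 169 genes were called again in these libraries, which are also part of the fit of 14. The F series alone (2 against 2) and series 3 against series 1 (2 against 2) called 0 genes by edgeR's test, with 491 and 181 at an unadjusted p under 0.05.

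Leaving out 1 library at a time gave between 85 calls (without Core 5-F) and 278 (without Core 1-9). Without each of Core 1-8, 5-F and 13-F and Shell 3-8, 3-9, 4-7, 4-8, 4-9 and 6-F the count was 85 to 138. Of 46 called genes described below, 20 passed in each of these 14 fits, and for the others the number of fits is given. The 46 do not include Sema3c, which was described outside the naming rule.

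All 16 myelin and mature oligodendrocyte genes were lower in Shell, with a median log2 fold change of -1.72 and a range of -1.97 to -0.88, against a median of 0.07 over all genes tested. Their summed level was 843 to 2363 CPM in Shell and 2190 to 7686 CPM in Core. The adjusted p-values of the 16 (edgeR) lay between 0.00659 and 0.0213, and each of the 16 was lower in Shell in 5 of 5 numbered pairs. So was Bmp4, described below, which did not pass, and the share over all genes was not counted. The count of lower calls was again 16 with the background covariate (median -1.49) and 16 in the 10 libraries (median -1.31). It was 13 to 16 without any 1 library, with 13 when Core 5-F was left out. With the replicate block it was 0, at a median of -1.63. In whole tissue, fewer cells of a type and less RNA per cell cannot be told apart.

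Mobp, a basic protein that lies in compact myelin, ran from 168 to 536 CPM in Shell (median 239) and from 454 to 1902 CPM in Core (median 927), a log2 fold change of -1.97 ± 0.30 (SE; adjusted p = 0.0119, edgeR). The groups overlapped through Shell 6-F, which stood above Core 2-8. Mbp, which binds the membrane layers of myelin to each other, ran from 215 to 571 CPM in Shell (median 380) and from 645 to 2290 CPM in Core (median 1302), with no overlap (-1.84 ± 0.28; adjusted p = 0.0119, edgeR).

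Opalin, a membrane glycoprotein of mature oligodendrocytes, did not overlap between the groups. It stood at 15.2 to 35.1 CPM in Shell (median 20.0) and at 44.2 to 116.0 CPM in Core (median 69.8), a log2 fold change of -1.78 ± 0.22 (adjusted p = 0.00659, edgeR). Ermn, a cytoskeletal protein of myelin, had 17.0 to 58.6 CPM in Shell and 47.8 to 191 CPM in Core (-1.90 ± 0.29). Mag, an adhesion molecule at the face between myelin and axon, had 19.9 to 55.9 CPM in Shell and 45.4 to 175 CPM in Core (-1.74 ± 0.30). Ermn and Mag overlapped through Shell 6-F alone, as Mobp did.

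Further genes of the sheath followed the same direction. Cldn11, the claudin of myelin's tight junctions, was lower by -1.76 ± 0.27 on the log2 scale, Mal, a proteolipid of myelin rafts, by -1.71 ± 0.28, and Tf, the iron carrier transferrin, by -1.74 ± 0.31. Fa2h, which hydroxylates the fatty acids of myelin lipids, had the narrowest spread. It ran from 20.7 to 26.3 CPM in Shell and from 37.5 to 65.6 CPM in Core (-1.10 ± 0.13; adjusted p = 0.00659, edgeR). Tf passed in 13 of the 14 fits that left out a library, with adjusted p = 0.0564 without Core 5-F.

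Also among the 15 largest decreases were Cryab, a small heat shock protein present in oligodendrocytes (-1.95 ± 0.31), Ppp1r14a, an inhibitor of myosin phosphatase (-1.68 ± 0.29), Tmem88b, a membrane protein (-1.67 ± 0.30), and S1pr5, a sphingosine phosphate receptor of oligodendrocytes (-1.61 ± 0.32). Cryab ran from 3.97 to 12.6 CPM in Shell and from 12.5 to 50.1 CPM in Core. It was the 1 heat shock gene called of 11 tested, and the median of that list was -0.10. Of the heat shock genes 3 were higher and 1 lower with the background covariate (median 0.23), and in the 10 libraries 7 and 1 (median 0.58), so the list's median changed sign. Without single libraries Cryab passed in 14 of 14 fits, Ppp1r14a in 13, Tmem88b in 12 and S1pr5 in 7, with adjusted p up to 0.0907 without Core 5-F.

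**Figure D2:**
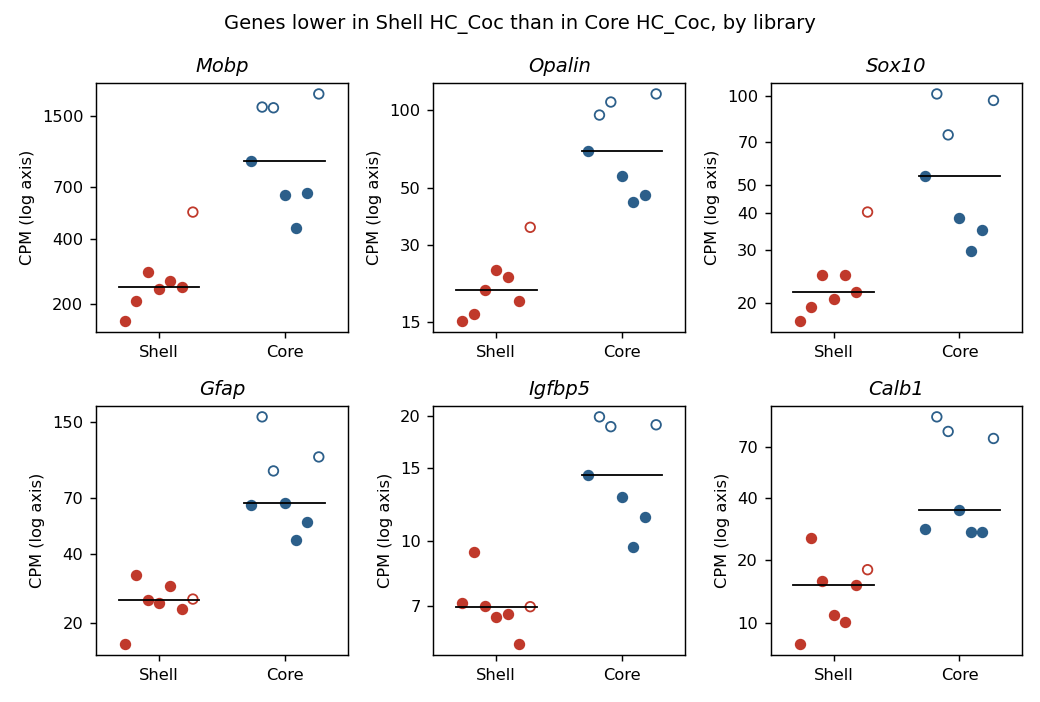
Levels (CPM, log axis) of Mobp, Opalin, Sox10, Gfap, Igfbp5 and Calb1 in the 7 Shell and 7 Core HC_Coc libraries, with a line at each median and open circles for the 4 libraries of low background. Opalin, Gfap, Igfbp5 and Calb1 do not overlap between the groups, while Mobp and Sox10 overlap through Shell 6-F.

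Genes of oligodendrocyte precursors and of the wider lineage were fewer among the calls. Of 10 precursor genes tested, 1 was lower and 0 higher, with a median of -0.50, and with the background covariate or in the 10 libraries 6 were lower and 0 higher. The called gene was Sox10, the transcription factor that directs the lineage from precursor to myelinating cell, at 17.4 to 40.5 CPM in Shell (median 21.7) and 29.9 to 101.4 CPM in Core (median 53.5). Its log2 fold change was -1.32 ± 0.27 (adjusted p = 0.0364, edgeR), and it passed in 5 of the 14 fits without 1 library. Olig1, another factor of the lineage, had -1.06 ± 0.28 and Bmp4, a secreted factor of committed precursors, -0.59 ± 0.16, and neither passed (adjusted p = 0.163 and 0.169, edgeR). Both passed with the background covariate (adjusted p = 7.2e-05 and 0.006).

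Matrix and growth factor genes gave 2 lower calls each and 0 higher, a one-sided split that did not hold in the other fits. Among matrix genes, 3 were higher and 4 lower with the background covariate, and in the 10 libraries 2 and 5. Of the growth factor genes 6 were higher and 5 lower with the covariate, and 7 and 6 in the 10 libraries. Over all genes 6.79% were higher and 2.80% lower with the covariate, and 17.4% and 12.6% in the 10 libraries. Adamts4, a protease that cleaves proteoglycans of the matrix, ran from 5.78 to 9.15 CPM in Shell and from 10.7 to 27.2 CPM in Core, without overlap (-1.44 ± 0.19; adjusted p = 0.00659, edgeR). Hapln2, a link protein at nodes of myelinated axons, had 7.02 to 21.4 CPM in Shell and 16.1 to 59.0 CPM in Core (-1.39 ± 0.29; adjusted p = 0.0452, edgeR). The 22 genes of the matrix list had a median of 0.04.

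Igfbp5, which binds insulin-like growth factors, and Fgfr2, a receptor for fibroblast growth factors, were the calls among 38 growth factor and receptor genes (median 0.05). Igfbp5 ran from 5.69 to 9.44 CPM in Shell (median 6.97) and from 9.70 to 19.9 CPM in Core (median 14.4), with no overlap (-1.08 ± 0.17; adjusted p = 0.0119, edgeR). Fgfr2 had 57.8 to 68.9 CPM in Shell and 70.9 to 146 CPM in Core, also without overlap (-0.71 ± 0.15; adjusted p = 0.0395, edgeR). Igfbp5 passed in 14 of the 14 fits without 1 library, Fgfr2 in 3 and Hapln2 in 2, and for Fgfr2 and Hapln2 the largest adjusted p was 0.108 and 0.126, in each case without Core 5-F.

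Astrocyte genes went in both directions. Of 15 tested, 2 were higher and 1 lower, with a median of -0.04. There were 6 higher and 2 lower with the background covariate, and 8 and 1 in the 10 libraries. Gfap, the intermediate filament of fibrous and reactive astrocytes, ran from 16.2 to 32.4 CPM in Shell (median 25.1) and from 45.6 to 157 CPM in Core (median 66.4). The groups did not overlap, and the log2 fold change was -1.74 ± 0.26 (adjusted p = 0.0119, edgeR), with a pass in 14 of 14 fits without 1 library.

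Itih3, a heavy chain of the inter-alpha-trypsin inhibitors that bind hyaluronan, moved the other way. It ran from 86.2 to 238 CPM in Shell (median 110) and from 32.6 to 80.1 CPM in Core (median 42.0), without overlap (1.35 ± 0.22; adjusted p = 0.0145, edgeR). Agt, which encodes angiotensinogen, the precursor of the angiotensins, had 25.6 to 74.8 CPM in Shell and 14.1 to 26.2 CPM in Core (1.19 ± 0.22; adjusted p = 0.0221, edgeR). Agt passed in 6 of the 14 fits without 1 library, and its largest adjusted p was 0.0634, without Shell 6-F.

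Slc25a18, a mitochondrial glutamate carrier known from astrocytes, was outside the list and had 13.5 to 21.9 CPM in Shell (median 16.3) and 5.50 to 9.58 CPM in Core (median 7.47). These groups did not overlap (1.18 ± 0.15; adjusted p = 0.00659, edgeR). Slc7a10, a serine and glycine transporter of astrocytes, had a log2 fold change of 0.56 ± 0.14 and did not pass (adjusted p = 0.133, edgeR), while it passed with the background covariate (adjusted p = 0.00018).

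Among 22 neuropeptide precursors 1 was higher and 0 lower, with a median of 0.38. The background covariate gave 6 higher and 1 lower, and the 10 libraries gave 8 and 1. The gene called was Nmb, which encodes neuromedin B, a relative of the bombesin peptides. It stood at 3.92 to 6.54 CPM in Shell (median 4.63) and at 1.32 to 2.72 CPM in Core (median 2.04). Each Shell library lay above each Core library, and the log2 fold change was 1.31 ± 0.20 (adjusted p = 0.0119, edgeR; 14 of 14 fits without 1 library).

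Nts, the precursor of neurotensin, and Cartpt, that of the CART peptides, had positive estimates that did not pass. Nts ran from 14.0 to 36.3 CPM in Shell (median 18.2) and from 4.18 to 17.8 CPM in Core (median 8.75), and its log2 fold change was 1.11 ± 0.30 (adjusted p = 0.177, edgeR). The 3 Core libraries of low background held the highest Core values, 12.7 to 17.8 CPM, and the part of the background in this overlap was not tested beyond the fits given here. Nts passed with the background covariate (1.37, adjusted p = 3.6e-06) and in the 10 libraries (1.61, adjusted p = 2.9e-05). Cartpt had 28.7 to 60.4 CPM in Shell and 14.0 to 46.4 CPM in Core (0.64 ± 0.25; adjusted p = 0.697, edgeR), and it too passed with the background covariate (0.88, adjusted p = 5.3e-05). All 3 genes were higher in Shell in 5 of 5 numbered pairs, a share that was not counted over all genes.

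The 250 bases before the annotated start of these 3 precursor genes are shown because the genes share a direction in the paired libraries. They come from RefSeq on the rat build GRCr8, written 5′ to 3′ on the gene's strand, with capitals for matches to TGACGTCA (a cAMP response element), TGANTCA (an AP-1 site) or TATAAA (the core of many promoters). The cAMP response element was found in 1.59% of 33469 such promoters, the AP-1 site in 6.34% and the core element in 12.9%, on either strand, and no match lies within another here. Cartpt holds 1 cAMP response element, 142 bases before its start, Nts holds 1 AP-1 site match, 212 bases before its start, and the Nmb window holds no match.
Nmb: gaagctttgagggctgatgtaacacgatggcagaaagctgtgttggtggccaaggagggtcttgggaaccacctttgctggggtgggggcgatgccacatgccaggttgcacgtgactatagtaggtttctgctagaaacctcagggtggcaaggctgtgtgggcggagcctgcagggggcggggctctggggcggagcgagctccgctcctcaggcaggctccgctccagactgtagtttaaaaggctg
Nts: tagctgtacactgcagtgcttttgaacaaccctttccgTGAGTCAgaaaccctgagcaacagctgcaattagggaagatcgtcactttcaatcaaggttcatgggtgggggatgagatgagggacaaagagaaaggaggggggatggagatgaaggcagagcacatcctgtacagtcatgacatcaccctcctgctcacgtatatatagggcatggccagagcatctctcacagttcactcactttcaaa
Cartpt: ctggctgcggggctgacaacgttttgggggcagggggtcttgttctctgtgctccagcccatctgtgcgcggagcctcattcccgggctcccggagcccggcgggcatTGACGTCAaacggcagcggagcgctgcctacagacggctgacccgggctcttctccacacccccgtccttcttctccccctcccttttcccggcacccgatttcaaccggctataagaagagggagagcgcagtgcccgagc

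The 3 precursors of the projection neurons did not pass. Tac1, which encodes substance P, had 10.3 to 21.8 CPM in Shell and 4.59 to 18.6 CPM in Core (0.54 ± 0.28; adjusted p = 0.999, edgeR), and passed with the background covariate (0.79, adjusted p = 0.0013). Penk, which encodes enkephalin, had 127 to 272 CPM in Shell and 136 to 629 CPM in Core (-0.86 ± 0.34; adjusted p = 0.67, edgeR). The 3 Core libraries of low background, at 500.1 to 629 CPM, set the upper end of Penk, and its estimate was -0.47 with the background covariate, where it passed (adjusted p = 0.033), and -0.08 in the 10 libraries, where it did not (adjusted p = 0.67). Pdyn, which encodes dynorphin, had 43.1 to 73.3 CPM in Shell and 30.4 to 109 CPM in Core (-0.03; adjusted p = 0.999, edgeR).

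Of 10 opioid and cannabinoid genes 2 were higher and 0 lower, with a median of 0.07. Adding the background covariate gave 4 higher and 0 lower, and the 10 libraries gave 5 and 0. Oprm1, the mu opioid receptor on which morphine and enkephalin act, ran from 58.0 to 73.9 CPM in Shell (median 61.7) and from 42.0 to 50.8 CPM in Core (median 45.3). The groups did not overlap, and the log2 fold change was 0.46 ± 0.09 (adjusted p = 0.0245, edgeR). Oprl1, the nociceptin receptor, ran from 8.15 to 19.8 CPM in Shell (median 10.4) and from 3.99 to 7.94 CPM in Core (median 5.33), also without overlap (0.92 ± 0.19; adjusted p = 0.0363, edgeR). Oprm1 passed in 6 and Oprl1 in 2 of the 14 fits without 1 library, with adjusted p up to 0.102 without Core 5-F and 0.114 without Shell 6-F.

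Of 24 genes of dopamine and cAMP signalling 1 was higher and 0 lower (median -0.05). With the background covariate 6 were higher and 2 lower (median 0.10), and in the 10 libraries 10 and 2 (median 0.27). The gene called in the 14 libraries was Drd3, the D3 dopamine receptor of the limbic striatum, at 23.4 to 31.8 CPM in Shell (median 28.8) and 13.7 to 21.3 CPM in Core (median 19.7), with no overlap (0.66 ± 0.13; adjusted p = 0.0279, edgeR; 6 of 14 fits without 1 library, largest adjusted p = 0.112 without Core 5-F). Drd1 had 51.5 to 107 CPM in Shell and 33.4 to 133 CPM in Core, and Drd2 had 86.1 to 240 CPM in Shell and 88.7 to 259 CPM in Core. Neither of these receptors, which define the D1-type and D2-type projection neurons, passed (-0.01 ± 0.29 and -0.20 ± 0.22; adjusted p = 0.999 for each, edgeR). Drd1 turned positive and passed in the 10 libraries (0.68, adjusted p = 0.001).

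Other receptors followed. Gpr165, an orphan receptor of the G protein-coupled kind, had the largest increase of all genes that met the rule for naming. It ran from 2.94 to 19.3 CPM in Shell (median 7.67) and from 1.38 to 3.67 CPM in Core (median 2.16), a log2 fold change of 1.98 ± 0.35 (adjusted p = 0.0184, edgeR). Shell 3-8 lay within the Core range and Shell 6-F was highest. It passed in 11 of the 14 fits without 1 library, not without Core 1-8, Core 5-F or Shell 6-F (adjusted p up to 0.0603).

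Of 28 peptide receptors 0 passed by edgeR's test, with 4 at an unadjusted p under 0.05, and 1 was higher by DESeq2's Wald test. Trhr, the receptor for thyrotropin-releasing hormone, did not overlap between groups, at 7.60 to 11.8 CPM in Shell and 2.63 to 7.26 CPM in Core (0.96 ± 0.22; adjusted p = 0.078, edgeR). Npy1r, a receptor for neuropeptide Y, had 0.50 ± 0.16 (adjusted p = 0.34, edgeR). Both passed with the background covariate (adjusted p = 0.00063 and 0.018), where 6 of the 28 were higher and 0 lower. In the 10 libraries 4 of the 28 were higher and 4 lower, with a median of -0.03, against 17.4% and 12.6% of all genes.

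Of 25 ionotropic glutamate receptor genes 1 was higher and 0 lower. With the background covariate 4 were higher and 3 lower, and in the 10 libraries 8 and 2. Grin3a, an NMDA receptor subunit that lowers calcium entry, ran from 67.0 to 82.6 CPM in Shell (median 73.0) and from 48.8 to 58.8 CPM in Core (median 53.3), without overlap (0.48 ± 0.08; adjusted p = 0.0157, edgeR). Grin3a passed in 12 of the 14 fits without 1 library, not without Core 5-F (adjusted p = 0.0589) or Shell 6-F. Grik1, a kainate receptor subunit, did not overlap either, at 81.7 to 108 CPM in Shell and 41.1 to 76.6 CPM in Core, and did not pass (0.61 ± 0.14; adjusted p = 0.0898, edgeR).

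The 20 GABA receptor and synthesis genes gave 0 calls in either direction by edgeR's test and 0 by DESeq2's Wald test, with 6 at an unadjusted p under 0.05 and a median of 0.19. There were 11 higher and 0 lower with the background covariate, and 15 and 0 in the 10 libraries. Gabra3, an alpha subunit of the GABA-A receptor, had 49.4 to 72.8 CPM in Shell and 34.6 to 54.2 CPM in Core (0.43 ± 0.11; adjusted p = 0.138, edgeR, and 4.9e-05 with the background covariate).

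**Figure D3:**
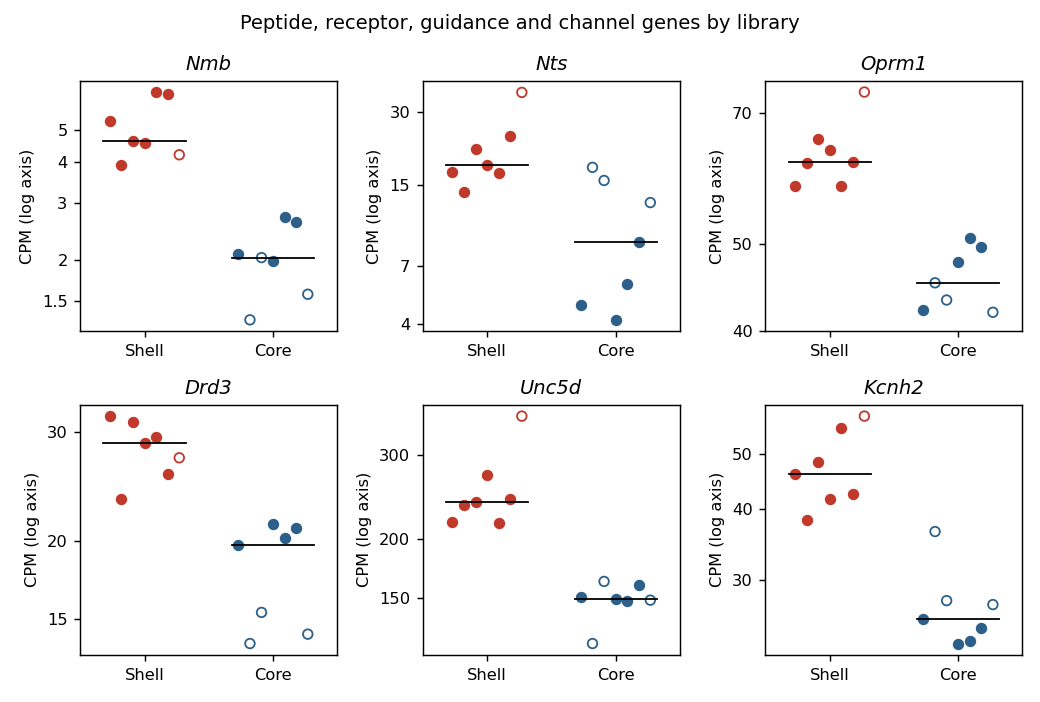
Levels (CPM, log axis) of Nmb, Nts, Oprm1, Drd3, Unc5d and Kcnh2 in the 7 Shell and 7 Core HC_Coc libraries, with a line at each median and open circles for the 4 libraries of low background. Each gene except Nts has all Shell libraries above all Core libraries.

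Calbindin is the classical protein marker of the core. Its gene Calb1 ran from 7.96 to 25.7 CPM in Shell (median 15.2) and from 27.2 to 97.6 CPM in Core (median 34.9). The groups did not overlap, and the log2 fold change was -1.79 ± 0.37 (adjusted p = 0.0395, edgeR). The 3 Core libraries of low background were the highest, at 76.9 to 97.6 CPM, against 27.2 to 34.9 CPM in the other 4, and in the 10 libraries the log2 fold change was -1.07 (adjusted p = 0.0024). Calb1 passed in 3 of the 14 fits without 1 library, with adjusted p up to 0.105 without Shell 6-F. Calb2, which encodes calretinin, had 11.7 to 24.0 CPM in Shell and 6.60 to 12.7 CPM in Core (0.65 ± 0.18; adjusted p = 0.20, edgeR). In the list of reported shell markers (Calb2, Cartpt, Drd3, Nts and Tac1) 1 of 5 passed here, and 5 of 5 passed as higher with the background covariate and in the 10 libraries.

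Markers of cholinergic interneurons, the tonically active cells of the striatum, had positive estimates for 10 of 10 members, with a median of 0.71. Over all genes tested 17660 of 28602 estimates were positive. Of the 10 members 1 was called higher, and 8 with the background covariate and 7 in the 10 libraries. Slc10a4, a vesicle protein of cholinergic and monoaminergic neurons, ran from 5.52 to 15.6 CPM in Shell (median 9.76) and from 3.36 to 9.18 CPM in Core (median 4.10), a log2 fold change of 1.01 ± 0.19 (adjusted p = 0.0251, edgeR). It passed in 5 of the 14 fits without 1 library (largest adjusted p = 0.0848, without Core 5-F), and without the F series covariate 0 of the 10 passed.

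Gbx2 and Lhx8, transcription factors needed for cholinergic cells, had 1.16 ± 0.30 and 0.90 ± 0.25 and did not pass (adjusted p = 0.143 and 0.177, edgeR). Lhx8 had 5.16 to 22.4 CPM in Shell and 4.88 to 7.91 CPM in Core. Within Shell, library 3-8 was lowest and 6-F highest for Lhx8, as for Gbx2 (1.135 and 6.39 CPM). The part of neighbouring tissue in the cholinergic markers was not tested. Of 14 GABAergic interneuron genes 0 passed by edgeR's test, with 3 at an unadjusted p under 0.05, and 1 was higher by DESeq2's Wald test. The background covariate gave 2 higher and 0 lower, and the 10 libraries gave 2 and 1, against 17.4% and 12.6% of all genes there. The lowest p on this list was that of Lhx6, a factor of interneurons from the medial ganglionic eminence. It had 11.4 to 34.6 CPM in Shell and 9.39 to 13.9 CPM in Core (0.95 ± 0.21; adjusted p = 0.0564, edgeR).

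Of 44 transcription factors of regional and cell identity 1 was higher and 0 lower. Adding the background covariate gave 12 higher and 4 lower, and the 10 libraries gave 18 and 5. Zic1, a zinc finger factor of the septum and ventral forebrain, ran from 8.63 to 12.1 CPM in Shell (median 10.8) and from 4.35 to 8.90 CPM in Core (median 5.11). Core 1-9 at 8.90 CPM was the only Core library within the Shell range, and the log2 fold change was 0.90 ± 0.17 (adjusted p = 0.0245, edgeR; 4 of 14 fits without 1 library, largest adjusted p = 0.0866 without Core 5-F). Zic4, its relative, had 0.86 ± 0.26 (adjusted p = 0.261, edgeR).

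Zic1 and Drd3 also belong to a list of genes of the neighbouring septum, pallidum and islands of Calleja. That list had positive estimates for 10 of 10 members, against 17660 of 28602 over all genes tested. Its median was 0.50 and its summed level 116 to 196 CPM in Shell and 69.1 to 178 CPM in Core. With the background covariate 5 of its members were higher and 0 lower, and in the 10 libraries 3 and 1, with a median of -0.01. The part of neighbouring tissue in the Zic1 and Drd3 results was not tested.

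Rxrg, a retinoid X receptor of striatal neurons, had 0.48 ± 0.12 and did not pass (adjusted p = 0.135, edgeR; 7.9e-06 with the background covariate).

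Axon guidance and adhesion genes gave 4 higher calls of 64 and 0 lower, with a median of 0.11. There were 23 higher and 5 lower with the background covariate, and 26 and 3 in the 10 libraries. Unc5d, a receptor of the netrin family, ran from 215 to 362 CPM in Shell (median 239) and from 120 to 163 CPM in Core (median 150). There was no overlap, and the log2 fold change was 0.77 ± 0.12 (adjusted p = 0.0119, edgeR; 14 of 14 fits without 1 library).

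Slit2, a secreted repellent of axons, ran from 107 to 167 CPM in Shell and from 78.7 to 105 CPM in Core (0.52 ± 0.09; adjusted p = 0.0157, edgeR), and Plxna1, a semaphorin receptor, from 57.4 to 109 CPM in Shell and from 29.8 to 55.2 CPM in Core (0.72 ± 0.14; adjusted p = 0.0345, edgeR). Neither overlapped between groups. Slit2 passed in 12 of the 14 fits without 1 library and Plxna1 in 2, with adjusted p up to 0.0653 without Core 5-F and 0.111 without Shell 6-F. The remaining call was Sema3c, a secreted semaphorin, chosen after its value was seen and not among the 46 genes (0.61 ± 0.13; adjusted p = 0.0462, edgeR). Ephb1, an ephrin receptor, had the lowest p among negative estimates, at 184 to 224 CPM in Shell and 222 to 345 CPM in Core, and did not pass (-0.45 ± 0.10; adjusted p = 0.0663, edgeR).

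Channel lists gave few calls, 0 of 26 potassium channels (median -0.06) and 1 of 25 sodium and calcium channels (median -0.02). Kcnh2, the ERG potassium channel that sets repolarization, ran from 38.3 to 58.2 CPM in Shell (median 46.0) and from 23.1 to 36.5 CPM in Core (median 25.6), without overlap (0.81 ± 0.13; adjusted p = 0.0119, edgeR; 14 of 14 fits without 1 library). In the list of 26 potassium channels, which does not hold Kcnh2, 0 passed by edgeR's test, with 6 at an unadjusted p under 0.05, 4 were higher by DESeq2's Wald test, 9 were higher and 1 lower with the background covariate, and 9 and 0 in the 10 libraries. Kcnc2, a channel of fast-spiking cells, had 0.66 ± 0.14 (adjusted p = 0.0517, edgeR).

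Of 25 sodium and calcium channel genes 1 was higher and 0 lower. The background covariate gave 7 higher and 0 lower, and the 10 libraries gave 13 and 0. Cacna2d2, an auxiliary subunit of calcium channels, ran from 79.7 to 136 CPM in Shell and from 59.7 to 74.4 CPM in Core (0.56 ± 0.11; adjusted p = 0.0363, edgeR). Hcn3, a pacemaker channel opened by hyperpolarization and outside that list, ran from 11.3 to 17.9 CPM in Shell and from 7.79 to 9.75 CPM in Core (0.67 ± 0.12; adjusted p = 0.0196, edgeR). Neither overlapped between groups. Cacna2d2 passed in 2 and Hcn3 in 8 of the 14 fits without 1 library, with adjusted p up to 0.136 and 0.0735, both without Core 5-F.

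Of 32 vesicle release genes 1 was higher and 0 lower, 15 were higher and 1 lower with the background covariate, and 18 and 0 in the 10 libraries. Syt9, a calcium sensor of vesicle fusion, kept a narrow range in Shell, 60.03 to 64.53 CPM, against 34.6 to 50.9 CPM in Core (0.46 ± 0.09; adjusted p = 0.0405, edgeR; 2 of 14 fits without 1 library, largest adjusted p = 0.142 without Core 13-F). Rims3, an active zone protein, had 0.49 ± 0.11 (adjusted p = 0.0871, edgeR). Baiap3, which takes part in the trafficking of dense core vesicles, was outside the list and ran from 19.9 to 62.9 CPM in Shell (median 27.0) and from 9.64 to 17.8 CPM in Core (median 13.7), without overlap (1.23 ± 0.20; adjusted p = 0.0124, edgeR; 14 of 14 fits without 1 library).

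Of 26 G protein regulators 1 was higher and 2 were lower, with a median of -0.13. Adding the background covariate gave 3 higher and 6 lower, and the 10 libraries gave 8 and 5 (median 0.17). Gng2, a gamma subunit, ran from 61.1 to 89.3 CPM in Shell and from 40.0 to 50.2 CPM in Core (0.52 ± 0.11; adjusted p = 0.0395, edgeR). Rgs3, a GTPase activator that ends G protein signals, ran from 46.3 to 66.3 CPM in Shell and from 77.6 to 91.5 CPM in Core (-0.54 ± 0.09; adjusted p = 0.0156, edgeR), and its relative Rgs20 from 32.9 to 40.9 CPM in Shell and from 46.4 to 76.8 CPM in Core (-0.57 ± 0.11; adjusted p = 0.033, edgeR). The groups did not overlap for any of these 3 genes. Rgs3 passed in 13 of the 14 fits without 1 library (adjusted p = 0.0512 without Core 5-F), Rgs20 in 3 and Gng2 in 2.

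The remaining large increases came from genes of varied roles. Col11a1, a chain of fibrillar collagen, ran from 46.8 to 57.3 CPM in Shell and from 26.9 to 37.5 CPM in Core (0.79 ± 0.09; adjusted p = 0.00659, edgeR). Iqsec3, an exchange factor for ARF proteins at inhibitory synapses, ran from 99.5 to 152 CPM in Shell and from 56.7 to 76.7 CPM in Core (0.79 ± 0.11; adjusted p = 0.00853, edgeR). These 2 genes did not overlap and passed in 14 of 14 fits without 1 library. MAST1, a kinase of the neuronal cytoskeleton, had 0.80 ± 0.17 and Rflnb, a filamin-binding protein, 1.04 ± 0.21 (adjusted p = 0.0414 and 0.0306, edgeR). They passed in 2 and 4 of the fits without 1 library, and both overlapped between groups.

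Lists of the projection neurons gave 0 calls by edgeR's test, and 1 lower D1-type marker by DESeq2's Wald test, with medians of -0.16 for the 14 shared markers, 0.12 for the 9 of D1 type and -0.20 for the 8 of D2 type. An unadjusted p under 0.05 was reached by 0 shared, 3 D1-type and 2 D2-type markers. Once the background covariate was added, 4 D1-type and 1 D2-type markers were higher, and 1 D1-type and 1 D2-type marker were lower. In the 10 libraries 6 shared, 7 D1-type and 3 D2-type markers were higher, and 1 D1-type marker was lower. Immediate early and activity genes, which neurons switch on within minutes of firing, also gave 0 of 28 by edgeR's and 0 by DESeq2's Wald test, with 1 at an unadjusted p under 0.05 and a median of -0.06. Of them Fos had 6.34 to 20.0 CPM in Shell and 4.13 to 19.3 CPM in Core, and Arc 27.0 to 84.5 CPM in Shell and 23.5 to 112 CPM in Core. With the background covariate 2 immediate early genes were higher, and in the 10 libraries 10.

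Markers of other cells gave 0 calls by edgeR's test for 14 microglial (median -0.21), 10 endothelial (-0.08) and 12 mural and fibroblast genes (0.23). The same held for 10 ependymal and choroid plexus (0.15), 11 glutamatergic cortical (0.45) and 7 blood genes (-0.05). DESeq2's Wald test also called 0 of each, and an unadjusted p under 0.05 was reached by 1 ependymal and choroid plexus gene, 3 cortical genes and 0 of the others. The summed level of the microglial list was 135 to 209 CPM in Shell and 141 to 271 CPM in Core. That of the cortical list was 254 to 456 CPM in Shell and 261 to 479 CPM in Core. Both ranges overlapped, but the sum hides single cortical genes, of which 9 had positive and 2 negative estimates. Neurod6 had 2.37, 3.50 and 5.33 CPM in Shell 3-8, 3-9 and 4-9, and 0.315 to 1.47 CPM in Core. Nptxr had 66.0, 75.4 and 97.4 CPM in the same Shell libraries and 21.5 to 56.2 CPM in Core. Cux2 and Rorb did not set Shell 3-8, 3-9 and 4-9 apart, and Nrgn had a negative estimate (-0.99). The part of cortical tissue in these libraries was not tested. In the fit with the background covariate 2 cortical genes were higher and 1 lower, and 0 genes of the other lists of this kind passed by edgeR's test. In the 10 libraries 1 microglial and 1 cortical gene were higher, and 1 microglial, 1 mural, 3 ependymal and choroid plexus and 1 blood gene were lower.

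**Figure D4:**
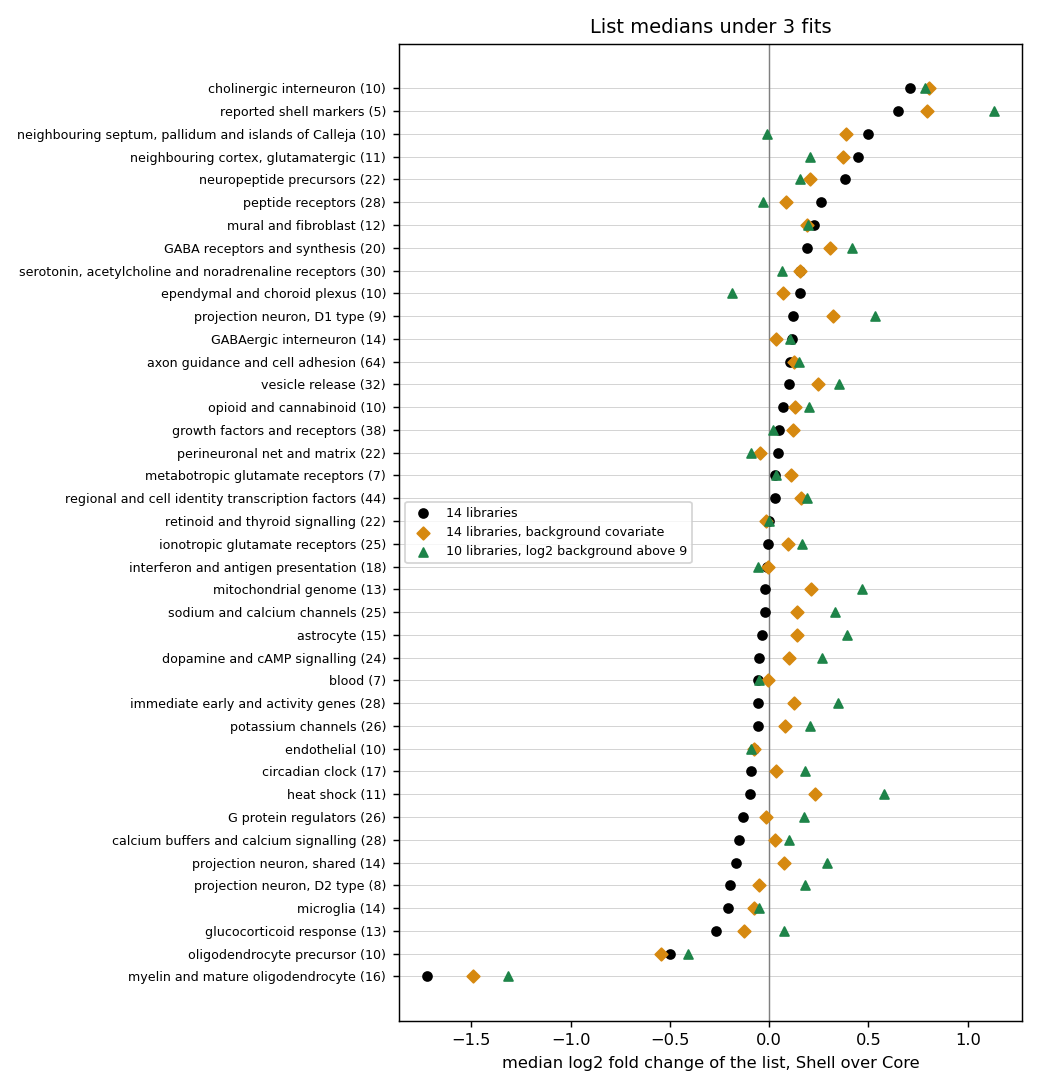
Median log2 fold change, Shell over Core, of each gene list with at least 5 genes tested (number in brackets) in 14 libraries, in 14 libraries with the background covariate and in 10 libraries with a log2 background above 9. The myelin list lies at -1.72, -1.49 and -1.31, and the cholinergic list at 0.71, 0.81 and 0.78.

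The question whether the subregion difference belonged to the cocaine HC group was put by setting it against the same difference in HC_Sal and in Ext_Coc, each tested as an interaction over 28 libraries. In HC_Sal, from its own 14 libraries, 171 genes were higher (0.601%) and 251 lower (0.882%), and 47 of the 58 higher and 157 of the 169 lower HC_Coc genes were among them. In Ext_Coc 29 were higher (0.0998%) and 325 lower (1.12%), with 16 of the 58 and 159 of the 169 among them. The interaction of HC_Coc with HC_Sal called 0 of 30090 genes by edgeR's test (75 at an unadjusted p under 0.05; DESeq2's Wald test 0), and that with Ext_Coc 0 of 30496 (190 at an unadjusted p under 0.05; DESeq2's Wald test 0).

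Myelin genes were lower in Shell in all 3 conditions, 16 of 16 in each, with medians of -1.72 in HC_Coc, -1.74 in HC_Sal and -1.91 in Ext_Coc. Mobp had -1.97 in HC_Coc, -1.92 in HC_Sal and -2.26 in Ext_Coc, and Calb1 had -1.79, -1.92 and -1.66 in the same conditions. The differences of Mobp between conditions were -0.08 ± 0.42 (HC_Coc less HC_Sal; SE) and 0.29 ± 0.39 (HC_Coc less Ext_Coc). Nmb had 1.31 in HC_Coc, 1.07 in HC_Sal and 0.97 in Ext_Coc, and Drd3 had 0.66, 0.69 and 0.63.

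Of the same 46 called genes, 43 passed in HC_Sal and 31 in Ext_Coc, where 9 of the 24 higher genes and 22 of the 22 lower genes passed. Itih3 had 1.35 in HC_Coc and 0.75 in Ext_Coc, where it did not pass (adjusted p = 0.14, edgeR), and the interaction was 0.60 (adjusted p = 0.802, edgeR). Hcn3 had 0.67 in HC_Coc, 0.37 in HC_Sal and 0.16 in Ext_Coc. Among genes with a symbol and a mean log2 CPM of at least 1 it had the lowest p in the interaction with Ext_Coc, 0.52 ± 0.17, and did not pass (adjusted p = 0.802, edgeR). The differences from HC_Sal ran from -0.24 to 0.44 over the 46 genes and those from Ext_Coc from -0.16 to 0.94, with standard errors of up to 0.47 and 0.52, so a pass in one condition and a miss in another is not a tested difference. The 3 conditions used separate libraries, and both interactions use the HC_Coc libraries.

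**Figure D5:**
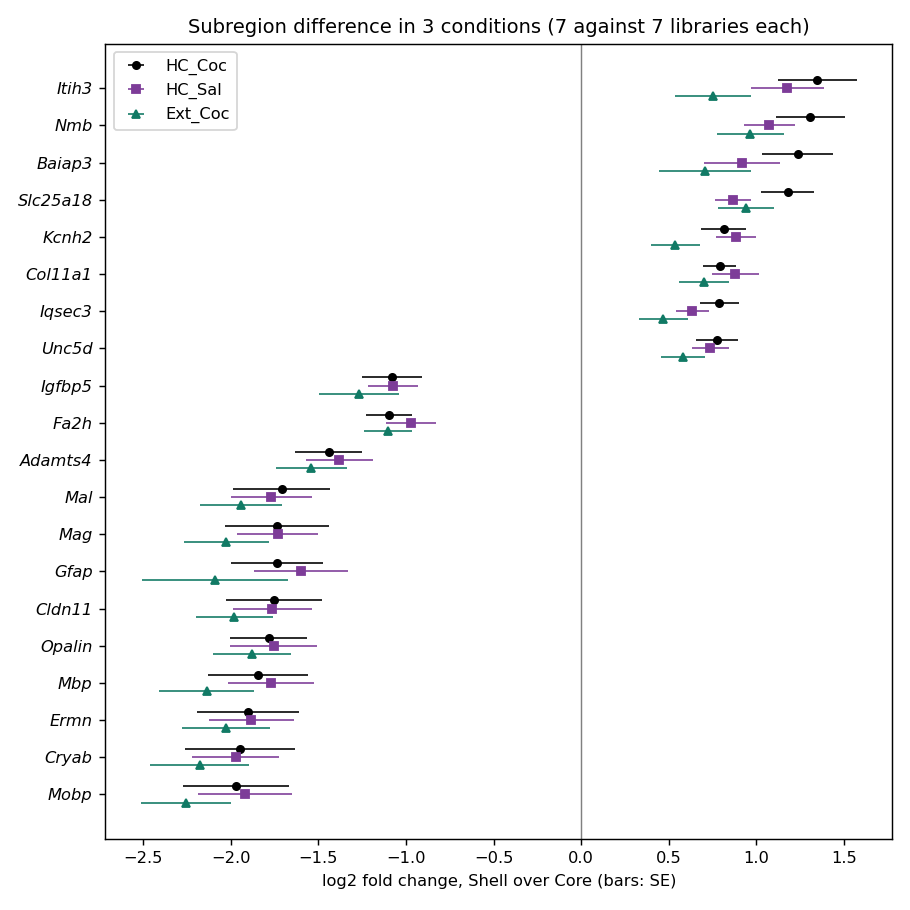
Log2 fold change of Shell over Core (points, with bars for the SE) in HC_Coc, HC_Sal and Ext_Coc, 7 against 7 libraries each, for the 20 genes that passed in HC_Coc in each of the 14 fits without 1 library. Each gene has the same sign in the 3 conditions, with Mobp at -1.97, -1.92 and -2.26.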

How the data were processed

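Whole-number counts per gene were used as deposited. They were made by the authors with featureCounts on mRatBN7.2, per the submitters' processing notes, from total RNA (Direct-zol extraction, SMARTer Stranded Total RNA-seq v3 Pico kit, per the labels' protocols). For the aligner, annotation release, strand setting and molecular identifiers nothing is given in the sources used here, so overlapping and antisense genes cannot be told apart. Of 41919 genes 28602 passed edgeR's filterByExpr.

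The main test was edgeR's quasi-likelihood F test (edgeR 4.0.16, R 4.3.3) on 14 libraries with TMM scaling, the F series as a covariate and Benjamini-Hochberg adjustment at 0.05. Log2 CPM used a prior count of 2. Interactions were fitted over 28 libraries. DESeq2 1.42.0, other scalings, filters, series, a background covariate and the omission of each library were alternatives. Only the main fit was tried on simulated counts. These held no background differences between libraries and no pairing, so that trial cannot speak to either. Depth was 13628550 to 20692061 counts per library.

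Genes were named by a rule: the 15 largest increases and 15 largest decreases that passed, among genes with a symbol whose log2 CPM averaged 1 or more, up to 3 members of lowest p per list and direction, and a short list of striatal genes. The members and the 41 gene lists were chosen with earlier results of these data known. Most but not all genes of that rule are described, and some are not reported here.

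Libraries with the same title number were compared by the correlation of their deviations from the group means, over 200 genes after 6 components were removed. The labels do not say what the number marks. More than one selection of genes was tried before this one was kept. The r was 0.336 to 0.445 in 4 of the 5 HC_Coc pairs and 0.0554 for Shell 3-9 with Core 1-9, so the limit of 0.1 for every pair was not met. Over all 30 pairs of the series the median was 0.382, against -0.012 for other pairings. Of Shell libraries 18 of 30 correlated best with their own number, and 3 of 5 in HC_Coc.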

Additional observations from a re-analysis of the deposited data

Results flagged for a closer look

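Of 144 sets of 7 libraries examined, 31 held a library whose gap to its nearest neighbour passed Dixon's critical value of 0.568. Chance gives about 1 in 20 for independent sets, but these sets share the same 14 libraries and are not independent. Shell 6-F, the Shell library of lowest background at 82.4 CPM, was the high one in most of the 31.

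Among myelin and oligodendrocyte-linked genes Shell 6-F stood apart for Mobp at 536 CPM, Ermn at 58.6 CPM, Mag at 55.9 CPM, Mal at 95.6 CPM and Cldn11 at 44.9 CPM. It also stood apart for Tmem88b at 9.01 CPM, Cryab at 12.6 CPM, Sox10 at 40.5 CPM, Fgfr2 at 68.9 CPM and Adamts4 at 9.15 CPM. These genes were lower in Shell, and this library was the Shell library nearest to Core.

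Among receptors Shell 6-F stood apart for Drd1 at 107 CPM, Drd2 at 240 CPM, Oprl1 at 19.8 CPM and Gabra3 at 72.8 CPM. Guidance genes were Unc5d at 362 CPM, Slit2 at 167 CPM and Plxna1 at 109 CPM. The others were Itih3 at 238 CPM, Calb2 at 24.0 CPM, Rxrg at 49.4 CPM, Gng2 at 89.3 CPM, Baiap3 at 62.9 CPM, MAST1 at 69.9 CPM and Iqsec3 at 152 CPM. The called genes among these were also called in the 10 libraries, which do not include Shell 6-F.

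In other Shell libraries Igfbp5 stood apart at 9.44 CPM in 3-8, Zic4 at 2.62 CPM in 4-7 and Syt9 at 64.5 CPM in 14-F. Core 1-9, the Core library of lowest background at 79.2 CPM, was high for Zic1 at 8.90 CPM and Kcnh2 at 36.5 CPM and low for Unc5d at 120 CPM. Its ribosomal RNA gene held 23.0% of the counts.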

How the results depend on the processing

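With the replicate block (the 5 title pairs) the count of 227 calls became 0 in 14 libraries and 0 in the 10 paired libraries (edgeR; 1218 and 779 at an unadjusted p under 0.05), while the block with the background covariate gave 2111. The count was 0 in the numbered libraries alone (975 at an unadjusted p under 0.05), 0 in the F series alone (491), 0 in series 3 against series 1 (181) and 5107 in series 4 against series 2. It was 556 by DESeq2's Wald test, 490 with all 84 libraries, 561 without Core Ctx_Coc 17-F, 2743 with the background covariate and 8977 in the 10 libraries with a log2 background above 9. The cause of these changes was not tested. It stayed within 1.5 times with DESeq2's size factors (224; 37 higher and 187 lower), no low-count filter (162), no F series covariate (161) and without Core 1-9 and Shell 3-9 (175), and ran from 85 to 278 without 1 library. The last omission, the 10 libraries and the background covariate with the block were chosen after the data had been seen.

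The 46 calls named by the rule (Sema3c is not among them) kept their direction in every alternative run. All 46 lost the call with the block and in the numbered libraries. All 46 kept it with the background covariate, with or without the block, and in the 10 libraries. These fits reuse libraries of the main fit, so the kept calls are no independent support. Without 1 library 20 to 44 of the 46 kept the call, with 20 without Core 5-F. Drd1, at -0.01, turned to 0.13 with the block, 0.30 in the 5 pairs, 0.10 in the numbered libraries, 0.59 in series 4 against series 2, 0.32 with the background covariate, 0.29 with that and the block, 0.68 in the 10 libraries and 0.29 without Core 1-9 and Shell 3-9, and ran from -0.12 to 0.35 without 1 library. Drd2 turned to 0.046 in series 4 against series 2 and to 0.20 in the 10 libraries. Both interactions gave 0 calls under every alternative run, the replicate block and DESeq2's Wald test included (74 genes at an unadjusted p under 0.05 for HC_Sal and 290 for Ext_Coc by DESeq2).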
